A study of Arabidopsis thaliana with 4 samples.

Results

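Dehydrins and cold-regulated protective proteins are very hydrophilic proteins that plant cells accumulate when water is withdrawn by drought, salt or freezing. The 10 genes described here were listed by name and locus, out of 33518 loci counted, with earlier results of these data known. They comprise the dehydrin genes COR47, ERD10, ERD14, RAB18 and XERO2, the paired genes KIN1 and KIN2, the chloroplast protein gene COR15A, and the neighbouring genes RD29A and RD29B. The data are RNA-seq read counts from entire seedlings of Arabidopsis thaliana, 5 days old and kept in constant light, with no cold or drought treatment named in the labels. The HBI1-Ox group (2 libraries) carries 35S::HBI1-YFP, that is, the basic helix-loop-helix factor HBI1 fused to a yellow fluorescent protein and driven by a viral promoter active in most tissues. The Col-0 group (2 libraries) is the wild-type accession. The comparison asks how the transcriptome of HBI1-Ox differs from wild type. A single overexpressing line was used, so raised HBI1 and any other difference of that line cannot be told apart.

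Dehydrins carry a lysine-rich stretch that can fold against membranes, and they are thought to shield membranes and proteins while cells lose water. COR15A protein enters the chloroplast and stabilises its membranes during freezing. In Arabidopsis these genes are classic targets of a pair of routes. CBF/DREB factors act in the cold on the DRE/CRT element, and abscisic acid acts through ABF factors on the abscisic acid response element. RD29A and RD29B are the textbook reporters of the first and the second route.

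All 10 genes were higher in HBI1-Ox than in Col-0, and none was lower. The log2 change ran from 0.53 for ERD14 to 1.89 for COR15A, or from 1.45-fold to 3.71-fold, with a median of 0.91 against a median of -0.012 over the 20320 genes tested. By the same test 8.33% of tested genes were higher and 7.15% lower (quasi-likelihood test of edgeR, with p adjusted after Benjamini and Hochberg and a threshold of 0.05). In each of the 10 genes both HBI1-Ox libraries lay above both Col-0 libraries, which held for 29.7% of tested genes. Because the 10 genes were chosen with earlier results of these data known, setting them beside these shares is description and no test. Together the genes took 0.253% and 0.246% of reads on genes in HBI1-Ox libraries 1 and 2, against 0.157% and 0.160% in Col-0 libraries 1 and 2. Scaling bears on these counts of calls: of all calls 53.8% were higher with TMM factors, which correct for library composition, and 22.2% with total counts alone, where the median of all tested genes moved to -0.162. The 10 genes kept a positive change there, and 9 of them passed.

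The libraries held between 10785178 and 19647745 reads on genes. HBI1 itself, the overexpressed gene, had 1566 and 1508 CPM (counts per unit of TMM-scaled library size) in HBI1-Ox and 99.2 and 84.5 CPM in Col-0, a log2 change of 4.06 ± 0.09 (± standard error, as for each log2 change below). Pairs of libraries were not equally alike: the mean chi-square per nuclear gene, which is 1 for pure counting error, was 1.72 between the HBI1-Ox libraries and 8.32 between the Col-0 libraries. Whether the libraries of a group are separate cultures is not said in the labels; the p-values therefore reflect library-to-library spread alone, which may be technical. Root markers showed no call among 5 genes, while 3 of 4 leaf and cotyledon markers rose, with summed levels of 33739 and 35055 CPM in HBI1-Ox and 25992 and 24746 CPM in Col-0; their part in the results below was not tested. LHCB1.1, one of the 3, missed the threshold with total counts (edgeR adjusted p = 0.0699), without HBI1-Ox library 1 (0.239) or 2 (0.301) and with both summed (0.252), while LHCB1.5 and LHCA3 passed in each of these settings. In whole seedlings more cells of a type and more RNA per cell cannot be told apart.

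**Figure D1:**
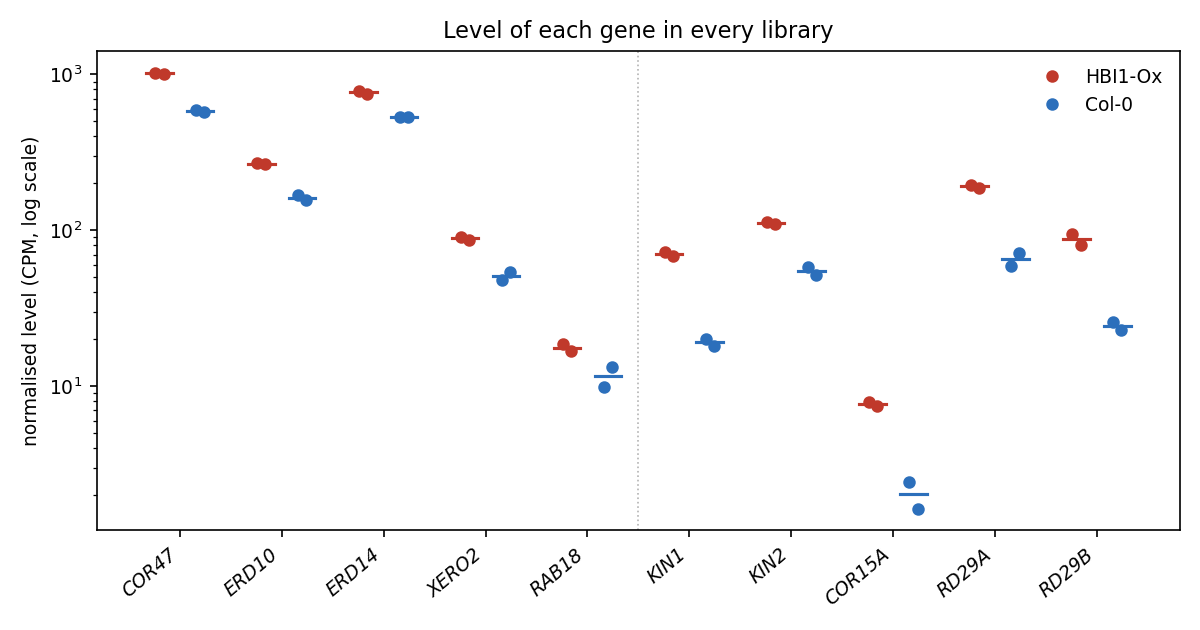
Normalised level in CPM on a log axis for each of the 10 genes, with a point for each library and a bar for the group mean of 2 libraries (HBI1-Ox red, Col-0 blue). The dehydrin genes stand left of the dotted line, and in all 10 genes the HBI1-Ox points lie above the Col-0 points, least far apart in RAB18, ERD14 and the other dehydrin genes.

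COR47, ERD10 and ERD14 are relatives that encode acidic dehydrins with a run of serines. They were the most abundant of the 10 per kilobase of exon, but per kilobase of coding sequence KIN2 stood above ERD10. COR47 (AT1G20440; chromosome 1, 7084409 to 7086873, minus strand, 2 exons; TAIR10.1 here and below) had 1027 and 1005 CPM in HBI1-Ox, against 593 and 578 CPM in Col-0. It rose by 0.80 ± 0.05 on the log2 scale (adjusted p = 0.000395), and the libraries of each group lay close together. ERD10 (AT1G20450; chromosome 1, 7087903 to 7089606, minus strand, 2 exons) lies 1029 bases from COR47 on the same strand. Its level was 269 and 266 CPM in HBI1-Ox and 168 and 156 CPM in Col-0, a rise of 0.72 ± 0.06 (adjusted p = 0.00101). ERD14 (AT1G76180; chromosome 1, 28586663 to 28587931, minus strand), whose protein acts as a chaperone in vitro, had 777 and 754 CPM in HBI1-Ox and 530 and 529 CPM in Col-0. Its rise of 0.53 ± 0.05 (adjusted p = 0.00161) was the smallest of the 10, with the closest agreement between Col-0 libraries. ERD14 missed the threshold without HBI1-Ox library 1 (0.51, edgeR adjusted p = 0.0791), without HBI1-Ox library 2 (0.56, adjusted p = 0.0637) and when both HBI1-Ox libraries were added up and treated as 1 sample (0.54, adjusted p = 0.0624).

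XERO2 and RAB18 encode the remaining dehydrins of the 10, the first known to bind membranes and the second a standard marker of abscisic acid. XERO2 (also LTI30, AT3G50970; chromosome 3, 18940643 to 18941611, plus strand, a single exon) had 90.7 and 86.8 CPM in HBI1-Ox, against 48.4 and 53.9 CPM in Col-0, and rose by 0.80 ± 0.08 (adjusted p = 0.00144). RAB18 (AT5G66400; chromosome 5, 26518277 to 26519447, minus strand, 2 exons) had 18.6 and 16.8 CPM in HBI1-Ox, against 9.88 and 13.3 CPM in Col-0. The groups stayed apart in both genes, but in RAB18 the gap between the Col-0 libraries (1.34-fold) was about as wide as the gap between the groups. RAB18 rose by 0.62 ± 0.15 (adjusted p = 0.0369), the weakest call of the 10. Its log2 change was 0.43 on leaving out Col-0 library 1 and 0.85 on leaving out library 2. It missed the threshold without HBI1-Ox library 1 (0.54, edgeR adjusted p = 0.281), without HBI1-Ox library 2 (0.69, adjusted p = 0.176), with the HBI1-Ox libraries summed (0.63, adjusted p = 0.189), with DESeq2 (0.63, adjusted p = 0.066) and with total counts (0.47, adjusted p = 0.0736). The starts of RAB18 and AT5G66410, which lie on opposite strands, overlap by 11 bases, and the sources used here do not give whether counting used strand. AT5G66410 had a log2 change of 0.01 ± 0.10 and was not called.

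The other 5 genes changed more than the 5 dehydrin genes: their log2 changes ran from 1.02 to 1.89, against 0.53 to 0.80 for the dehydrin genes, a split that was noticed after the values were seen and carries no test. KIN1 and KIN2 encode very short hydrophilic proteins induced by cold and abscisic acid. KIN1 (AT5G15960; chromosome 5, 5209717 to 5210826, plus strand, 3 exons) had 72.1 and 68.9 CPM in HBI1-Ox and 20.2 and 18.0 CPM in Col-0, a rise of 1.88 ± 0.08 (adjusted p = 0.000125). KIN2 (also COR6.6, AT5G15970; chromosome 5, 5211719 to 5212743, plus strand, 3 exons), which follows KIN1 after 892 bases, had 113 and 110 CPM in HBI1-Ox and 58.4 and 51.4 CPM in Col-0, a rise of 1.02 ± 0.08 (adjusted p = 0.000748). In HBI1-Ox both genes stood well above the highest Col-0 library, KIN1 by more. Their coding sequences are alike at 191 of 201 bases (95.0%), with a longest identical run of 58 bases. The count data hold a row for alignments that are not unique, with 0 reads in each library. Whether reads shared by such copies were removed earlier or assigned to a copy is not given. The division of reads between KIN1 and KIN2 is therefore uncertain.

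RD29A and RD29B encode hydrophilic proteins known as markers of desiccation and cold, and they lie head to tail, 1185 bases apart. RD29A (also LTI78, AT5G52310; chromosome 5, 21240717 to 21243644, plus strand, 4 exons) had 197 and 187 CPM in HBI1-Ox, against 59.1 and 71.1 CPM in Col-0. It rose by 1.56 ± 0.09 (adjusted p = 0.000318). RD29B (also LTI65, AT5G52300; chromosome 5, 21237021 to 21239531, plus strand, 5 exons) had 94.5 and 80.9 CPM in HBI1-Ox, against 25.9 and 23.1 CPM in Col-0, and rose by 1.84 ± 0.10 (adjusted p = 0.000255). RD29B was the gene of the 10 with the widest gap between the HBI1-Ox libraries (1.17-fold), still small beside its 3.58-fold change.

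COR15A (AT2G42540; chromosome 2, 17710441 to 17712330, minus strand, 4 mRNA models) had the largest change and the fewest reads. It was counted with 147 and 106 reads in HBI1-Ox (7.90 and 7.44 CPM) and 33 and 19 reads in Col-0 (2.43 and 1.65 CPM). Its rise of 1.89 ± 0.21 (adjusted p = 0.00264) has the largest standard error of the 10. Without HBI1-Ox library 1 the log2 change was 1.85 and missed the threshold (edgeR adjusted p = 0.0556), and on leaving out Col-0 library 1 or 2 it was 1.66 to 2.23. The other 7 genes, that is, all but ERD14, RAB18 and COR15A, passed in each of the 12 alternative settings tried.

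**Figure D2:**
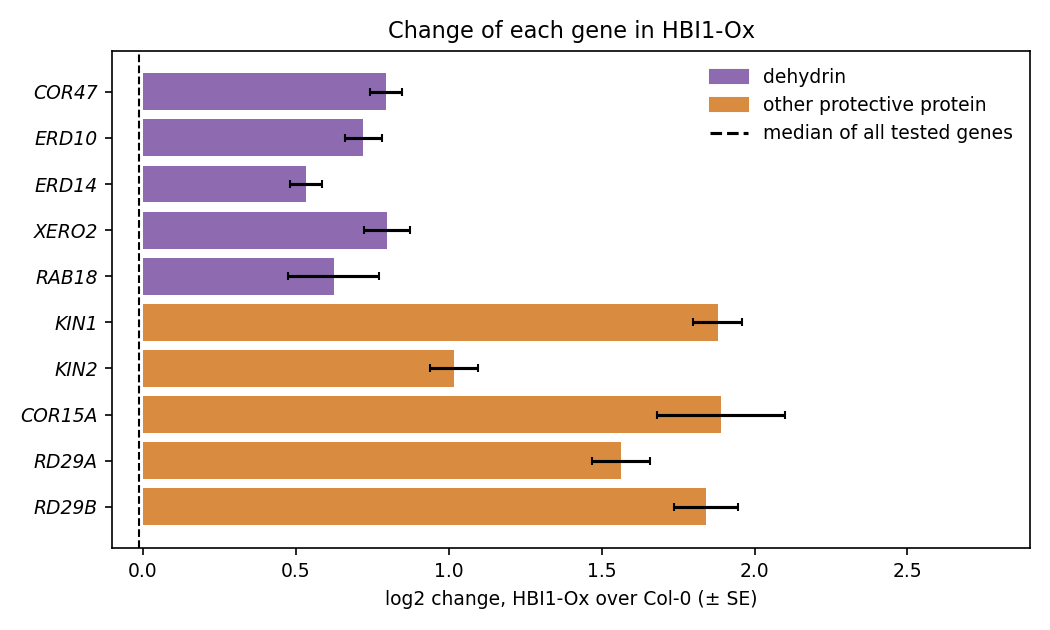
Log2 change of HBI1-Ox over Col-0 for each of the 10 genes, with bars for the estimate and whiskers for its standard error (2 libraries a group). The 5 dehydrin genes reach from 0.53 to 0.80 and the other 5 from 1.02 to 1.89, all right of the dashed median of all tested genes at -0.012.

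The genes kept nearly the same order of abundance in both groups. Per kilobase of exon (CPM divided by the length of all annotated exons), ERD14 led with 648 ± 14 in HBI1-Ox and 448 ± 0.22 in Col-0 (mean ± SD, n = 2 libraries each, as for the levels that follow), ahead of COR47 with 438 ± 6.7 in HBI1-Ox and 252 ± 4.8 in Col-0. ERD10 came next with 165 ± 1.1 in HBI1-Ox and 99.9 ± 5.3 in Col-0, and then KIN2 with 148 ± 3.2 in HBI1-Ox and 73.2 ± 6.6 in Col-0. XERO2 followed with 91.6 ± 2.9 in HBI1-Ox and 52.8 ± 4.0 in Col-0. The order changed at a single place: KIN1 stood above RD29A in HBI1-Ox (85.1 ± 2.8 and 72.1 ± 2.6), while in Col-0 the values of KIN1 and RD29A overlapped (23.1 ± 1.9 and 24.4 ± 3.2). RD29B had 40.4 ± 4.4 in HBI1-Ox and 11.3 ± 0.92 in Col-0, and RAB18 had 16.2 ± 1.2 in HBI1-Ox and 10.6 ± 2.2 in Col-0. These neighbours in the order, RD29B and RAB18, overlapped in Col-0 and were clearly apart in HBI1-Ox. COR15A was lowest, at 4.84 ± 0.20 in HBI1-Ox and 1.29 ± 0.35 in Col-0. Other neighbours in the order did not overlap in either group. Per kilobase of coding sequence KIN2 and KIN1 moved up to the third and the fourth place in HBI1-Ox, ahead of ERD10. Only 201 of the 750 exon bases of KIN2 and of the 829 of KIN1 are coding. The order thus depends on the length used, and the sources used here do not give on which exons reads were counted. The 5 dehydrin genes made up 81.8% and 82.4% of the reads of all 10 genes in HBI1-Ox, against 89.0% in each Col-0 library.

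Several of the 10 genes sit beside a relative, and the ratio of reads within a library, which no scaling can alter, shows whether such pairs moved in step. KIN1 had 0.639 and 0.629 reads per KIN2 read in HBI1-Ox, against 0.346 and 0.351 in Col-0. COR15A had 1.44 and 1.33 reads per read of COR15B, its neighbour 7 bases away, in HBI1-Ox, against 0.733 and 0.475 in Col-0. In both pairs the ratio was higher in HBI1-Ox, and the groups did not overlap. The division of reads between KIN1 and KIN2 is uncertain, as said above, and the likeness of COR15A and COR15B was not measured. In Col-0 libraries 1 and 2 COR15A had only 33 and 19 reads, and COR15B had 45 and 40. COR47 had 3.82 and 3.78 reads per ERD10 read in HBI1-Ox, against 3.53 and 3.70 in Col-0, a small step without overlap. RD29B had 0.481 and 0.433 reads per RD29A read in HBI1-Ox, against 0.438 and 0.324 in Col-0, and here the groups overlapped. XERO2 had 27.7 and 24.7 reads per read of its dehydrin neighbour XERO1 in HBI1-Ox, against 34.5 and 34.6 in Col-0. In Col-0 libraries 1 and 2 XERO1 had only 19 and 18 reads, so its ratio there is imprecise. With 2 libraries a group, the smallest p of an exact permutation test is 0.33, and none of these 5 ratios was tested.

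**Figure D3:**
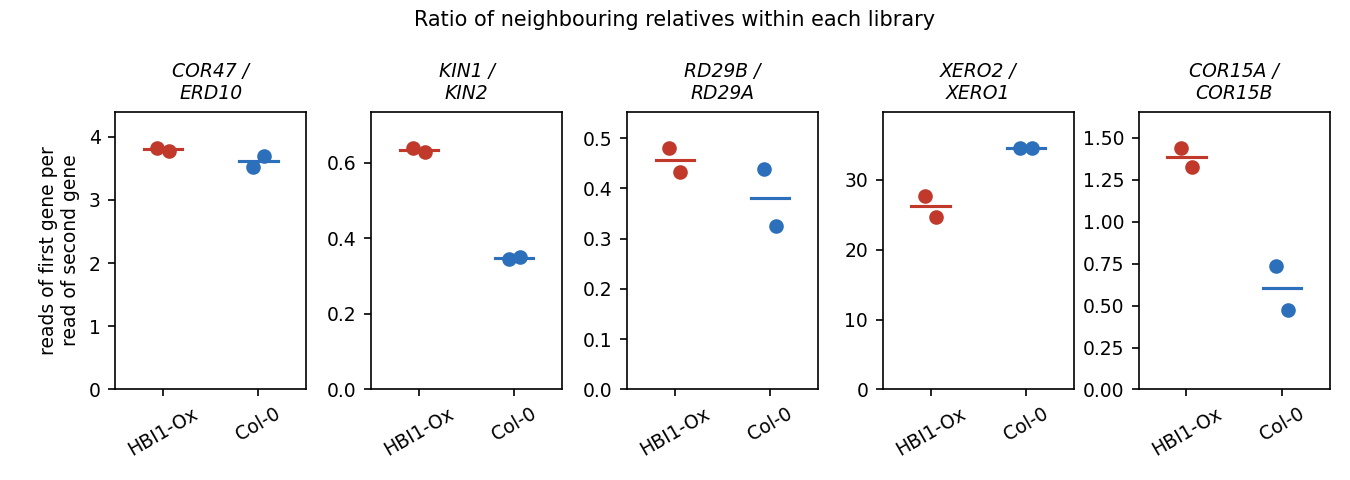
Reads of the first gene per read of the second in each library, for 5 pairs of neighbouring relatives (points for libraries, bars for the mean of 2; each axis starts at 0). KIN1 over KIN2 and COR15A over COR15B were higher in HBI1-Ox, XERO2 over XERO1 was lower, and RD29B over RD29A overlapped between groups.

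The 14 protein-coding neighbours that are not among the 10 genes showed whether the surrounding genes moved too. Of these, 12 could be tested, 2 rose and none fell. The risers were the relatives themselves. XERO1, 313 bases from XERO2, had 61 and 50 reads in HBI1-Ox and 19 and 18 reads in Col-0 (1.19 ± 0.22, adjusted p = 0.0176). COR15B had 102 and 80 reads in HBI1-Ox and 45 and 40 reads in Col-0 (0.71 ± 0.17, adjusted p = 0.0348). Neither held with fewer HBI1-Ox libraries: without HBI1-Ox library 1 or 2 the edgeR adjusted p was 0.158 and 0.171 for XERO1, and 0.231 and 0.234 for COR15B. Both also missed the threshold with DESeq2 (adjusted p = 0.127 for XERO1 and 0.279 for COR15B) and when both HBI1-Ox libraries were added up (edgeR adjusted p = 0.134 for XERO1 and 0.198 for COR15B), and COR15B missed it with total counts (0.56, adjusted p = 0.0599).

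The upstream regions of the 5 genes with the largest changes are shown with the matches of 2 elements known from this gene group. They are the 300 bases before the annotated start of RD29A (chr5:21240417-21240716, plus strand), RD29B (chr5:21236721-21237020, plus strand), COR15A (chr2:17712331-17712630, minus strand), KIN1 (chr5:5209417-5209716, plus strand) and KIN2 (chr5:5211419-5211718, plus strand), from the RefSeq TAIR10.1 genome. Capitals mark each match, on either strand, of the DRE/CRT core CCGAC and of the abscisic acid response element core ACGTG.
RD29A: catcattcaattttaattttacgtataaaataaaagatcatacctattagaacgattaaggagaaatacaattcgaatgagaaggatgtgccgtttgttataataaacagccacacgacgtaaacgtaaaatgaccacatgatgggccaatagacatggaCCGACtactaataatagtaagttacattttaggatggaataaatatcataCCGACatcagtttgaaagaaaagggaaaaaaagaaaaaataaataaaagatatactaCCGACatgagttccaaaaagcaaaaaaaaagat
RD29B: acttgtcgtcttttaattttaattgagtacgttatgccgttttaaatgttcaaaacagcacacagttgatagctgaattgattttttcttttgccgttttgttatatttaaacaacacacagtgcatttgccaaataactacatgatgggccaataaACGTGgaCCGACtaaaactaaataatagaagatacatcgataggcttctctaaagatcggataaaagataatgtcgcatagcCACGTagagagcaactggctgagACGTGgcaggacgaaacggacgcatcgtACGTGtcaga
COR15A: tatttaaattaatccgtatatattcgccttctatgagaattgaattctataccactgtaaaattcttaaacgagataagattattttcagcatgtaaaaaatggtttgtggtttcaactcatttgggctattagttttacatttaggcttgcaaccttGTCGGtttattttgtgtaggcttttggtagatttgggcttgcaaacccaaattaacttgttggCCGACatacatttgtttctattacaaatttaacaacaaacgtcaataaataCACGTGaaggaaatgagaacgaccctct
KIN1: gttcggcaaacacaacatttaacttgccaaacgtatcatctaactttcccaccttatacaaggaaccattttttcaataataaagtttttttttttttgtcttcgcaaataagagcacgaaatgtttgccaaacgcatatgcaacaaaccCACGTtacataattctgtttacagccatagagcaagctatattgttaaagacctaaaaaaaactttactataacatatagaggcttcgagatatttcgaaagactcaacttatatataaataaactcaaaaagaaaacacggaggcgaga
KIN2: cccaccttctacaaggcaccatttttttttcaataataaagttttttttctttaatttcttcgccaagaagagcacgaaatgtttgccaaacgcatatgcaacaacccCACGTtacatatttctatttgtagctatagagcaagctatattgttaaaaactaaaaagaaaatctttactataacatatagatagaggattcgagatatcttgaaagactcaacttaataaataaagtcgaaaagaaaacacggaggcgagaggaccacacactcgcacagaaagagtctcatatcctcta

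RD29A held 3 matches of CCGAC and none of ACGTG, and RD29B held 4 of ACGTG and 1 of CCGAC. COR15A held 2 matches of each, its pair of ACGTG matches being the overlapping strands of a single palindrome CACGTG, the G-box. KIN1 and KIN2 each held 1 ACGTG match in a stretch that both share: over 249 aligned bases their upstream regions are identical at 231 (92.8%). Neither KIN1 nor KIN2 held a match of CCGAC. Across the 10 genes 6 had ACGTG and 4 had CCGAC in the 300 bases, where 25.6% and 13.9% of 27438 protein-coding genes had a match. XERO2 held 3 CCGAC matches and RAB18 3 ACGTG matches, with changes of 0.80 and 0.62. The 300 bases before XERO2 reach into the neighbouring gene AT3G50960, and those before RAB18 into AT5G66410. The E-box CANNTG, the broad class of sites that basic helix-loop-helix factors bind and which includes the G-box, was present in 8 of the 10 genes and in 61.9% of all genes, and the G-box in COR15A alone of the 10 and in 7.09% of all genes. Matches were sought on both strands, in these 300 bases alone. Bases farther upstream and bases inside the annotated gene were not searched. A missing match therefore does not show that a gene lacks the element. A match describes the letters and is no evidence of binding.

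**Figure D4:**
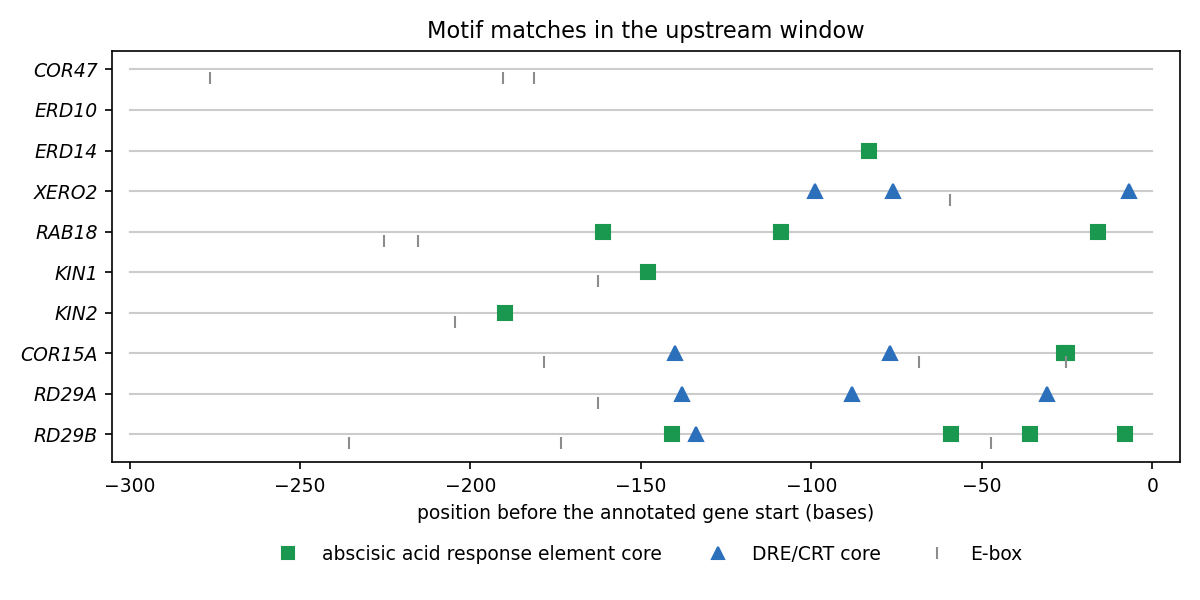
Position of motif matches in the 300 bases before the annotated start of each of the 10 genes (green squares, abscisic acid response element core; blue triangles, DRE/CRT core; grey ticks, E-box; axis in bases). RD29A and XERO2 show 3 DRE/CRT cores each and no abscisic acid response element core, RD29B shows 4 of the latter, and ERD10 shows no match of any of the motifs.

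Wider sets of protective protein genes did not move as one. Beside the counts for this and the following lists, 8.33% of all tested genes were higher and 7.15% lower. Of 4 tested dehydrin genes outside the 10, XERO1 rose and HIRD11 fell. HIRD11, a small histidine-rich dehydrin, had 633 and 614 CPM in HBI1-Ox and 716 and 746 CPM in Col-0 (-0.23 ± 0.05, adjusted p = 0.0367), so its groups lay apart by a small step in the other direction. Its call was lost without HBI1-Ox library 1 (edgeR adjusted p = 0.326), without HBI1-Ox library 2 (0.405) and with DESeq2 (0.0511). Among 9 tested genes of other late embryogenesis abundant (LEA) proteins, a large class of hydrophilic protectants that accumulate in drying seeds, 3 rose, 2 fell and 4 did not pass, with a median log2 change of -0.06. LEA7 had 51.3 and 50.0 CPM in HBI1-Ox and 13.2 and 11.3 CPM in Col-0 (2.04 ± 0.09, adjusted p = 0.000125), a change larger than that of any of the 10 genes. LEA14 rose by 0.81 ± 0.06 and LEA18 had a log2 change of -0.80 ± 0.13 and fell, although LEA18 missed the threshold without HBI1-Ox library 1 (adjusted p = 0.117) or 2 (0.12). Seed storage markers were low, with summed levels over 9 genes of 17.9 and 19.9 CPM in HBI1-Ox and 14.7 and 23.1 CPM in Col-0; SESA1 and CRU2 each had 0 reads in a library of each group. The seed marker called was SESA4, with 2 and 0 reads in HBI1-Ox and 14 and 10 in Col-0, 6.37% of the Col-0 level with an exact 95% range for counting error of 0.729% to 25.6%. It was not called without HBI1-Ox library 1 or 2 or with DESeq2.

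Other cold-regulated genes went largely the same way as the 10: 7 of 9 tested rose, none fell and 2 did not pass, with a median log2 change of 0.56. COR413IM1, which encodes a membrane protein of the chloroplast inner envelope, had 60.4 and 61.5 CPM in HBI1-Ox and 23.7 and 21.1 CPM in Col-0 (1.44 ± 0.08, adjusted p = 0.000228). COR413-PM1, a relative at the plasma membrane, rose by 0.66 ± 0.06, and RCI2A, which encodes a short hydrophobic membrane protein, by 0.56 ± 0.05. COR413IM1 alone of the list passed without HBI1-Ox library 1 or 2 (edgeR adjusted p = 0.012 and 0.0115), and 2 genes passed with the HBI1-Ox libraries summed. The genes that did not pass were COR27 (-0.41 ± 0.16) and AT4G33980 (-0.05 ± 0.21). COR27 was chosen here because its log2 change had the other sign.

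Genes of the cold signalling factors did not rise with the protective genes. Of 10 tested, 4 fell and 6 did not pass. CBF3, one of the CBF factors that bind the DRE/CRT element, had 3 reads in each HBI1-Ox library and 15 and 12 reads in Col-0, 17.0% of the Col-0 level with an exact 95% range for counting error of 5.73% to 42.0% (adjusted p = 0.0127). CBF2 had 30 and 16 reads in HBI1-Ox and 29 and 66 in Col-0 and did not pass. CBF1, left out by the low-count filter, had 5 and 2 reads in HBI1-Ox and 5 and 44 in Col-0. For CBF1 and CBF2 the high value was that of Col-0 library 2. ZAT10, a zinc finger repressor of stress responses, had 4.24 and 4.21 CPM in HBI1-Ox and 12.5 and 27.8 CPM in Col-0 (-2.24 ± 0.39, adjusted p = 0.0127). MYB15, described as a repressor of CBF genes, had 4 and 2 reads in HBI1-Ox and 46 and 14 in Col-0, 7.64% of the Col-0 level with an exact 95% range for counting error of 2.70% to 17.6% (adjusted p = 0.0188). The Col-0 libraries differed by more than 2-fold in ZAT10 and MYB15, in opposite directions. With Col-0 library 1 or 2 left out, the log2 change of ZAT10 was -2.70 or -1.57 and that of MYB15 was -2.67 or -4.16. None of CBF3, ZAT10 and MYB15 passed without HBI1-Ox library 1 or 2 (edgeR adjusted p from 0.118 to 0.211), and CBF3 missed the threshold with DESeq2 (adjusted p = 0.126). DREB2A, a drought-responsive DREB factor, had 42.8 and 41.6 CPM in HBI1-Ox and 31.0 and 16.9 CPM in Col-0. It did not pass (edgeR adjusted p = 0.0629), but did without the low-count filter, with limma-voom and with the replicate number as a block.

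In the abscisic acid pathway receptors bind the hormone and block PP2C phosphatases, which frees SnRK2 kinases to activate ABF factors. Of 9 receptor genes 3 were lower in HBI1-Ox and none higher. PYL8 had 65.6 and 64.6 CPM in HBI1-Ox and 86.6 and 85.8 CPM in Col-0 (-0.40 ± 0.06, adjusted p = 0.00682), and the log2 changes were -1.58 ± 0.31 for PYL6 and -0.45 ± 0.12 for PYL4. Of 7 tested phosphatase genes 2 rose, HAB1 by 0.43 ± 0.06 and ABI2 by 0.56 ± 0.08. Over all tested genes 8.33% were higher and 7.15% lower, and the counts of these short lists were not tested against those shares. Among 9 kinase and factor genes ABF3, a factor that binds the abscisic acid response element, had 155 and 153 CPM in HBI1-Ox and 107 and 91.8 CPM in Col-0 (0.63 ± 0.08, adjusted p = 0.00483) and rose. ABI3, a regulator of seed maturation, fell, with 16 and 14 reads in HBI1-Ox and 58 and 38 in Col-0 (-2.05 ± 0.27, adjusted p = 0.00472). None of these 7 genes passed without HBI1-Ox library 1 or 2, nor with the HBI1-Ox libraries summed, and PYL4 missed the threshold with RLE factors (adjusted p = 0.053) and had a log2 change of -0.24 without Col-0 library 1.

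Of 16 other genes of drought and abscisic acid output, 8 rose, 3 fell and 5 did not pass, with a median log2 change of 0.32. P5CS1, which makes proline, an osmoprotectant, had 269 and 250 CPM in HBI1-Ox and 62.2 and 65.9 CPM in Col-0 (2.02 ± 0.07, adjusted p = 6.11e-05). RD22, a dehydration-responsive gene, had 505 and 497 CPM in HBI1-Ox and 246 and 250 CPM in Col-0 (1.02 ± 0.05, adjusted p = 0.000215). Both held with either HBI1-Ox library left out. ERD7 rose by 0.47 ± 0.06 and missed the threshold without HBI1-Ox library 1 (edgeR adjusted p = 0.0981) or 2 (0.0923).

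**Figure D5:**
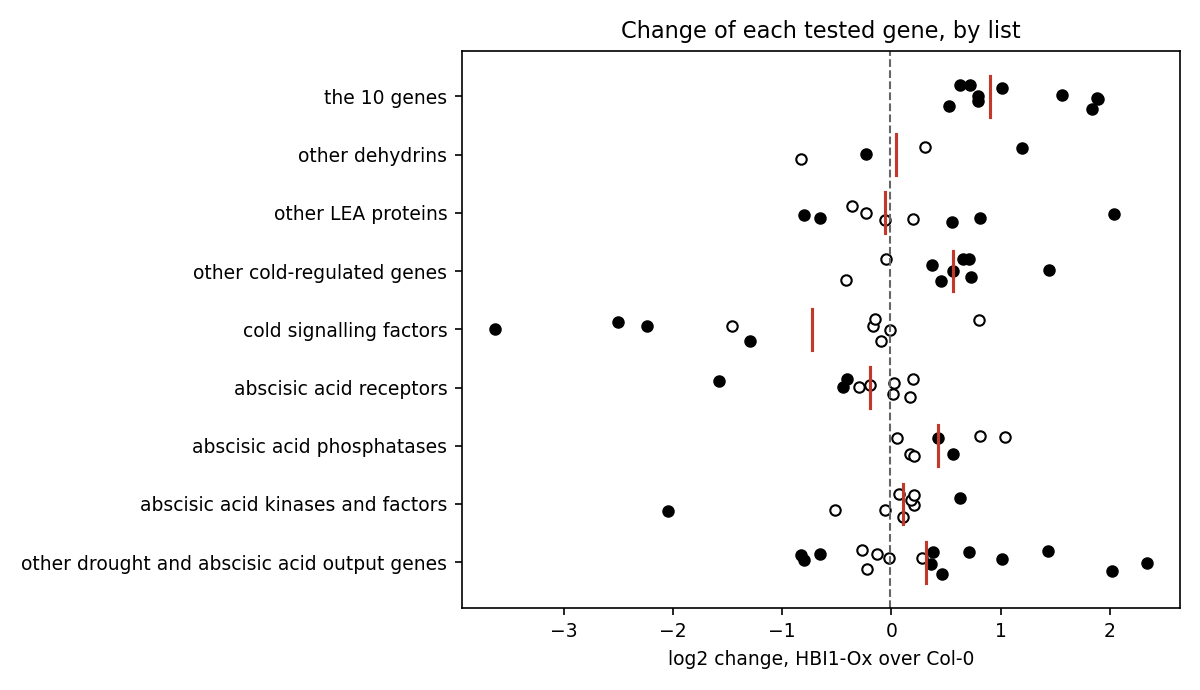
Log2 change of HBI1-Ox over Col-0 for each tested gene of the 9 lists (filled points, adjusted p under 0.05; open points, not passed; red bars, list medians; dashed line, median of all tested genes). The 10 genes all lie to the right with a median of 0.91, other cold-regulated genes have a median of 0.56, and the filled points of 4 cold signalling factors lie to the left.

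The authors' deposited table gives a log2 change for 9 of the 10 genes, from 0.63 for RAB18 to 1.93 for COR15A, and lies within 0.0356 of the values above. ERD14 has no entry among the 1256 genes of that table, and the sources used here do not give the rule by which they were listed.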

How the data were processed

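Whole seedlings of HBI1-Ox and Col-0 were sequenced in 4 libraries, 2 per group, grouped and numbered by the labels. The authors deposited unnormalised read counts per locus for each library. Per the submitters' processing notes, TopHat, DESeq and build TAIR10 were used; the sources used here do not give their versions, nor which read counter or strand setting was applied. Rows naming no gene held between 13.2% and 13.7% of reads and were left out. A second table deposited by the authors holds log2 fold changes.

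The filterByExpr function, with a minimum count of 10 and a minimum total of 15, left 20320 genes. These were scaled by TMM and compared by the quasi-likelihood functions glmQLFit and glmQLFTest of edgeR 4.0.16 (R 4.3.3) on group alone, with 2 residual degrees of freedom. All p-values of the 20320 genes were adjusted together after Benjamini and Hochberg (threshold 0.05). Standard errors are the absolute log2 change divided by the square root of F. CPM use the TMM-scaled library size. Intervals at 95% are exact (Clopper-Pearson) and cover counting error only. Upstream regions, exon lengths and neighbours came from the RefSeq TAIR10.1 genome and annotation, and coding sequences were aligned with Biopython 1.88. The procedure was also run on simulated data, and no result above rests on that run. The 10 genes and all gene lists were chosen with earlier results of these data known. Genes named from the other lists are up to 3 called genes per list with the smallest adjusted p, besides neighbours of the 10 genes. CBF1, CBF2, DREB2A, COR27, AT4G33980, SESA1 and CRU2 were not called and were named after their values were seen. Alternatives were RLE factors, total counts, no low-count filter, at least 1 CPM in 2 libraries, DESeq2 1.42.0, limma-voom (limma 3.58.1), the replicate number as a block, each library left out in turn, and the HBI1-Ox libraries summed.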

Additional observations from a re-analysis of the deposited data

How the results depend on the processing

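All 120 log2 changes of the 10 genes under the 12 alternatives were positive, and 9 of them missed the threshold, those of ERD14, RAB18 and COR15A given above. Where a library is left out, the one that remains in its group borrows its spread from the other group. With a library left out the log2 change ranged from 0.51 to 0.56 for ERD14, 0.43 to 0.85 for RAB18 and 1.66 to 2.23 for COR15A. With the HBI1-Ox libraries summed, ERD14 (0.54) and RAB18 (0.63) did not pass; RAB18 did not pass with total counts (0.47) or DESeq2 (0.63) either. Summed libraries left 8 of the 10 genes higher, against 1.48% of all tested genes (307 higher, 271 lower). Over all genes 1693 were higher and 1452 lower in the full fit, against 995 and 3481 with total counts, 1142 and 797 with DESeq2, and 242 to 3515 and 187 to 3008 with a library left out. The replicate number as a block gave 1459 higher and 1337 lower genes and left all 10 genes called, while HIRD11 (adjusted p = 0.0922) and COR15B (0.0535) were not called; same-numbered libraries did not deviate together (correlation -0.00144 across genes), so the numbers were not taken as pairs. Other lists lost most calls with the HBI1-Ox libraries summed, where 2 cold-regulated and 4 drought output genes were higher, and 0 were higher among other dehydrins, phosphatases and kinases and factors. In that setting 0 were lower among other dehydrins, LEA proteins, cold signalling factors, receptors, kinases and factors, and drought output genes. Other dehydrins had 0 higher and 0 lower with DESeq2 and 0 lower with the replicate block. Cold signalling factors had 1 higher gene, DREB2A, without the low-count filter, with limma-voom and with the replicate block. With a library left out, higher and lower genes ranged from 0 to 1 each for other dehydrins, 0 to 3 lower for LEA proteins, 1 to 7 higher and 0 to 1 lower for cold-regulated genes, 0 to 1 higher and 0 to 7 lower for cold signalling factors, 0 to 5 lower for receptors, 0 to 5 higher for phosphatases, 0 to 4 higher and 0 to 2 lower for kinases and factors, and 2 to 10 higher and 0 to 5 lower for drought output genes. Among the 10 genes COR15A had the fewest reads.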
